A study of Caenorhabditis elegans with 31 samples.

Results

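Nuclei that carry the hedgehog-related genes grd-3, grd-10 and grd-13 were examined across 31 single-nucleus RNA libraries of whole adult Caenorhabditis elegans. A unique molecular identifier (UMI) marks 1 captured RNA molecule, and a gene with at least 1 UMI counts here as detected. Nuclei with 800 to 20000 UMIs were kept, and members were the kept nuclei in which at least 2 of the 3 genes were detected. This gave 8824 members among 57155 kept nuclei (15.4%), of 85180 deposited nuclei. The set was proposed under the name of seam-like nuclei. Members were chosen by the UMIs of these 3 genes in the same nuclei, so the levels of the 3 genes in members are a description and carry no test.

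All groups were the strain JK560, which carries the allele fog-1(q253) and makes a full germline without fertilized embryos. Worms were kept on OP50 bacteria at 20°C and moved to 25°C as L1 larvae. The protocols give 48 hours in one place and 62 hours in another for the time at 25°C, so no age is stated. Each library came from nuclei of a pellet of pooled worms, broken in a Dounce homogenizer, so no library is 1 animal. The groups were water F3 (5 libraries, batches 2 and 4), 0.05% ethanol F3 (5, batches 2 and 4), 0.5% ethanol F3 (3, batch 4), water F1 (5, batches 2 and 5), 0.05% ethanol F1 (5, batches 2 and 5) and 0.5% ethanol F1 (3, batch 5). Untreated P0 worms gave 5 more libraries, of which 1 (batch 1) was sorted and 4 (batches 1 and 3) were unsorted. The labels do not say whether the libraries of a group came from separate cultures, so the p-values measure the spread between these libraries, part of which may be technical.

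Nematodes have no clear counterpart of Hedgehog itself, but they have a large family of secreted hedgehog-related proteins, named warthog (wrt), groundhog (grd), ground-like (grl) and hog. Their counterparts on the cell surface are the patched and patched-related proteins (ptc and ptr), and many members of both families are known from the epidermis and from the making of the cuticle. Seam cells are a row of epidermal cells along each side of the worm. They divide like stem cells in larvae under GATA, Runx and Wnt pathway factors, and at the last molt they fuse and lay down the alae, the ridges of the adult cuticle. In the WBcel235 annotation grd-13, grd-3 and grd-10 lie next to each other on chromosome IV, in this order and on the plus strand, with no other gene between them. No sequences of these genes were in the sources used here.

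Several properties of the libraries touch all results below. Total UMIs per library ran from 1218248 to 25500166. Libraries of the same batch shared cell barcodes, with a median of 27.5 shared barcodes over the 104 library pairs within a batch, against at most 10 in any of the 361 pairs from different batches. The most, 233, were shared by 0.05% ethanol F1 and water F3, both replicate 1 of batch 2, which is 14.6% of the smaller library. Of the members, 418 (4.74%) had a barcode that occurs in another library of the same batch, against 3.24% of the other kept nuclei. A score from simulated pairs of nuclei marked 489 members (5.54%) and 2.60% of the other kept nuclei as doublets. Results that rest on members are therefore also given without shared barcodes and without marked doublets where this changed a call.

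The most common pattern among members was grd-3 with grd-10, which 66.0% of them carried. All 3 genes were detected in 21.7%, grd-3 with grd-13 in 11.1% and grd-10 with grd-13 in 1.19%. Many members met the rule on few molecules. Exactly 1 UMI of grd-10 was present in 47.2% of them, and 16.8% had no more than 2 UMIs of the 3 genes together. The median was 6 such UMIs and the highest 599. Just inside the rule, the 6913 nuclei with exactly 2 of the genes had a median of 1.32 UMIs of the 3 genes per 1000 UMIs. Just outside it, the 16962 nuclei with exactly 1 gene had a median of 0.706.

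Members were deep nuclei. Their median was 4106.5 UMIs, against 1584 in the other kept nuclei. The share of members was 4.79% in nuclei with 800 to 1600 UMIs, 13.3% at 1600 to 3200, 28.2% at 3200 to 6400 and 51.9% at 6400 to 20000. Once each nucleus was thinned at random to 800 UMIs, the shares in the same bins were 3.25%, 4.44%, 5.64% and 6.94%. Thinning lowered the overall share to 4.33% (2474 nuclei), against 15.4% without it.

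**Figure D1:**
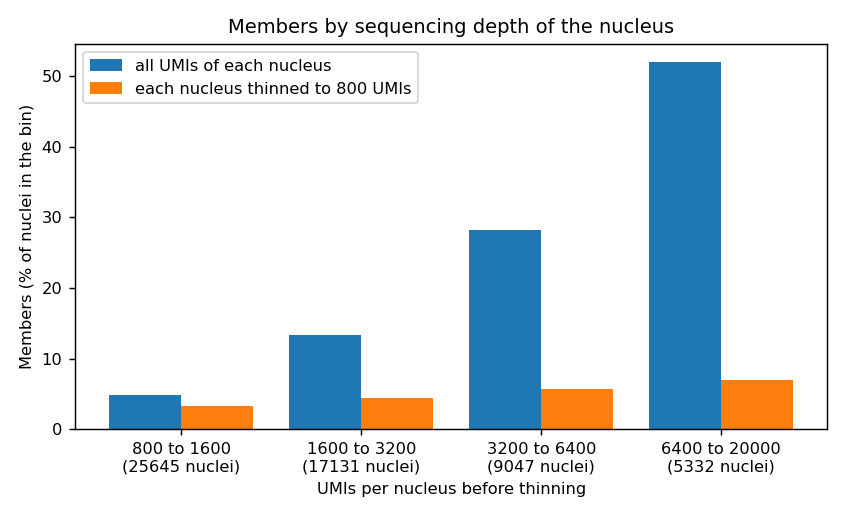
Members as a percentage of kept nuclei (y axis) in 4 bins of UMIs per nucleus (x axis, with the number of nuclei), from all UMIs of each nucleus and after thinning each nucleus to 800 UMIs. The share without thinning is 4.79% in the shallowest bin and 51.9% in the deepest, and the thinned share is 3.25% in the shallowest and 6.94% in the deepest.

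UMIs of the rule genes were also found in nuclei marked by other tissues. Among 34078 kept nuclei with at least 2 of the body wall muscle genes myo-3, unc-54 and unc-15, grd-3 was detected in 53.2% and grd-10 in 24.2%, at a median of 2284 UMIs, and 23.0% were members. Among 13867 kept nuclei with at least 2 of the germline genes glh-1, pgl-1 and gld-1, at a median of 3457 UMIs, 24.1% were members. Both shares lie above the 15.4% of all kept nuclei, whose median was 1765 UMIs. After the thinning described above, the shares were 5.78% with the muscle mark, 4.18% with the germline mark and 4.33% in all kept nuclei. After thinning, of these 2 marks only the muscle mark thus had a share above that of all kept nuclei. The marks were called before thinning, and the thinned share still rose with the original depth, as given above. In turn, 88.7% of members carried the muscle mark, against 54.3% of the other kept nuclei, and 37.8% of members the germline mark, against 21.8% of the other kept nuclei, beside medians of 4106.5 UMIs in members and 1584 in other nuclei. Droplets can take up RNA free in the suspension, and its part in the membership was not tested.

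The label was set against 9 genes known from seam cells. Only egl-18, which encodes a GATA factor, was detected in at least 5% of members. It averaged 16.5 CPM (UMIs scaled to the same total in each set of nuclei) ± 14.9 in members and 23.2 ± 7.19 in other kept nuclei (SD, n = 31 libraries each), and it was lower in members in 28 of 31 libraries. The Runx gene rnt-1 averaged 3.19 CPM in members against 3.85 in other nuclei, the engrailed gene ceh-16 0.986 against 1.20 CPM, the warthog gene wrt-2 1.35 against 2.35 CPM, the zinc finger gene bed-3 2.20 against 3.27 CPM, and the Runx partner bro-1 0.0862 against 0.342 CPM. These 6 markers thus had lower means in members than in other nuclei. A lower mean was common, since the median ratio over all genes detected in at least 5% of members was 0.802. The other 3 had higher means in members. The nuclear receptor gene nhr-74 averaged 15.8 CPM ± 16.4 in members against 3.29 ± 2.00 in other nuclei and was higher in 29 of 31 libraries. Its neighbour in the family, nhr-73, averaged 1.65 against 0.302 CPM, and the GATA factor gene elt-1 5.65 against 3.51 CPM. Summed over libraries first, the ratio was 2.55 for nhr-74, against 4.801 from the library means. The set as a whole is therefore not called seam-like below, but grd nuclei or members.

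To describe which genes went with the rule, UMIs were summed over members and over the other kept nuclei of each library, and the 2 mean CPM values over the 31 libraries were divided. Among the 8125 genes detected in at least 5% of members, 9.12% were at least 1.5 times higher in members and 22.7% at least 1.5 times lower, with a median ratio of 0.802. The rule genes stood at 1638 against 280 CPM for grd-3 (ratio 5.85), 366 against 17.95 for grd-10 (20.4) and 98.9 against 4.55 for grd-13 (21.7). Among nuclei of 800 to 2000 UMIs alone the ratio of grd-3 was 9.74.

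The gene with the largest ratio beyond the rule, among genes detected in at least 20% of members, was another groundhog gene. The gene grd-5, on chromosome V, had a lowest library of 808 CPM, a median of 1659 and a highest of 3823 in members, against 245, 360 and 589 CPM in other nuclei. Its means were 1956 ± 688 in members and 377 ± 82.8 in other nuclei (SD, n = 31 each), a ratio of 5.18, with members higher in every library and the 2 ranges apart. Next came srap-1 at 94.5 against 24.1 CPM (3.93). The gene osm-11, which encodes a secreted co-ligand of Notch receptors known from the epidermis, averaged 605 ± 296 CPM in members and 155 ± 39.0 CPM in other nuclei (3.90). It was followed by Y51H4A.7 at 151 against 38.9 CPM (3.88), T25G12.3 at 60.4 against 20.0 CPM (3.02) and fip-5, named as induced by fungal infection, at 69.7 against 23.2 CPM (3.01). The aquaporin gene aqp-8, known from the excretory canal, averaged 76.4 ± 34.8 CPM in members and 27.7 ± 10.1 CPM in other nuclei (2.76).

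Collagen genes were also among the 25 leading genes. The collagen genes col-103, col-42 and col-98 averaged 2904, 2334 and 3218 CPM in members against 1148, 928 and 1280 CPM in other nuclei, with ratios of 2.53, 2.52 and 2.51. The antimicrobial peptide gene nlp-27 averaged 1357 against 544 CPM (2.49). The genes haly-1 and pah-1, for the enzymes that break down histidine and hydroxylate phenylalanine, had ratios of 2.45 and 2.43. The neuropeptide gene flp-14 had a ratio of 2.40, but it was higher in members in only 26 of 31 libraries, with a highest library of 1491 CPM against a median of 131. Of the leading genes not yet named, F20A1.1 (2.72) and F32H5.3 (2.62) stood above the collagens. The others were D1086.3, T13F3.6, F15E6.4, brp-1, gly-8, F55H12.4, F11E6.3, F15E6.3 and F46C5.10, with ratios from 2.48 to 2.26, and all 11 were higher in members in 31 of 31 libraries. Of the 25 genes, 24 were higher in members in every library. The genes were chosen by their ratio in the same libraries, so these library counts are a description and no separate support. When UMIs were summed over libraries before the ratio was taken, the ratio was 1.38 for D1086.3, 1.40 for F15E6.4, 1.05 for F15E6.3, 1.63 for brp-1 and 2.59 for Y51H4A.7. Among nuclei of 800 to 2000 UMIs alone, the ratios were 7.94 for grd-5 and 7.01 for srap-1.

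**Figure D2:**
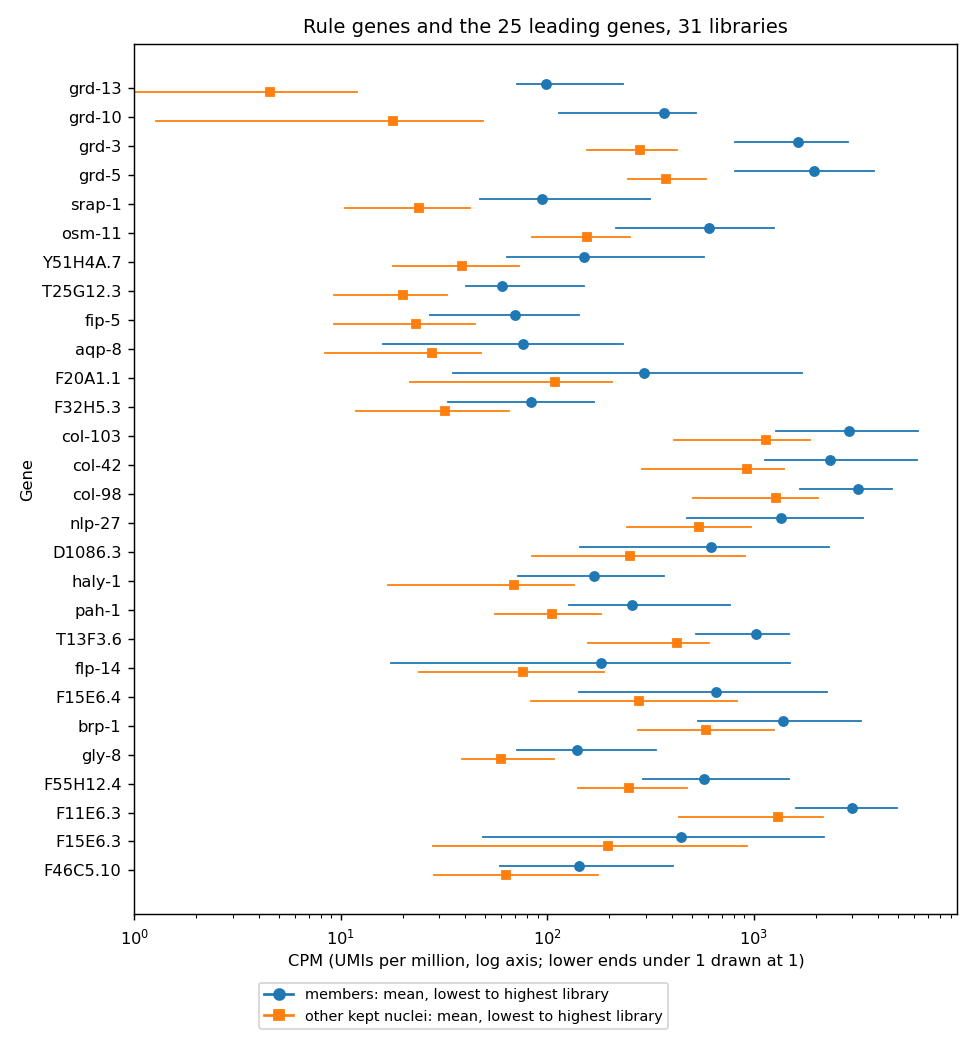
CPM on a log axis (x) for the 3 rule genes and the 25 leading genes (y), in members (circles) and other kept nuclei (squares); points are means over 31 libraries and lines run from the lowest to the highest library. The lines of members and other nuclei are apart for grd-5, whose members lie between 808 and 3823 CPM and whose other nuclei lie between 245 and 589 CPM, and they overlap for flp-14.

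Of 58 hedgehog-related genes beyond the rule, 7 were detected in at least 5% of members, and 4 of these were at least 1.5 times higher in members and none at least 1.5 times lower, beside 9.12% and 22.7% of all genes. These are descriptions of lists and were not tested. Besides grd-5 these were grd-4 at 32.2 ± 24.0 against 6.49 ± 4.07 CPM (ratio 4.96, or 3.03 summed over libraries, higher in 31 of 31 libraries), grd-14 at 57.2 against 33.5 CPM (1.71, 26 of 31) and the ground-like gene grl-4 at 92.3 against 56.1 CPM (1.65, 28 of 31). The other 3 were grl-21 (1.27), wrt-5 (0.859) and grl-16 (0.767). Of 30 genes for patched-related and similar membrane proteins, 11 passed the same limit and 6 of them were at least 1.5 times higher. These 6 were ptr-20 (ratio 1.93), ptr-12 (1.86), ptr-8 (1.77), ptc-3 (1.56), ptr-23 (1.54) and ptr-14 (1.53), while ptc-1 and ptr-2 stood at 0.784 and 0.719. The median ratios were 1.65 for the hedgehog-related and 1.53 for the patched-related genes that passed, against 0.802 for all genes.

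Of 179 cuticle collagen genes, 90 were detected in at least 5% of members. Of these 90, 31 were at least 1.5 times higher, beside 9.12% of all genes, and 13 at least 1.5 times lower, beside 22.7% of all genes. Their median ratio was 1.19, against 0.802 for all genes. At the lower end, col-135 averaged 16.7 against 29.1 CPM (0.573), lower in members in 26 of 31 libraries. The lowest ratio was that of col-63 at 0.562, but summed over libraries it was 1.03. Among 54 genes of the other apical matrix 5 passed the limit, and dpy-31, which encodes a protease that trims collagens, was the 1 that was at least 1.5 times higher, at 98.0 ± 41.4 against 59.8 ± 14.5 CPM.

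The lists of seam regulators, timing genes, junction genes and Wnt genes held 1 gene at least 1.5 times higher in members. Of 14 seam regulators 2 passed the limit, egl-18 (0.709) and the TCF gene pop-1, which averaged 20.3 ± 8.94 CPM in members and 55.1 ± 23.5 CPM in other nuclei (0.369, or 0.566 among nuclei of 800 to 2000 UMIs) and was lower in 31 of 31 libraries. Of 12 heterochronic genes, which time larval development, 5 passed, and 3 of them were at least 1.5 times lower, namely lin-14 (0.521), daf-12 (0.592) and lin-41 (0.614). The adult switch gene lin-29 stood at 21.7 ± 10.9 against 17.5 ± 6.14 CPM (1.24), higher in members in 18 of 31 libraries. Of 18 junction and fusion genes 13 passed, none at least 1.5 times higher and 3 at least 1.5 times lower, a share near the 22.7% of all genes, among them the cadherin gene hmr-1 (0.516) and the polarity gene par-3 (0.605). Of 25 Wnt genes 19 passed, 10 of them at least 1.5 times lower, and the Wnt ligand gene cwn-1 was the 1 as much higher, at 14.9 against 9.54 CPM (1.56).

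Levels of the rule genes varied widely within the set. Members were therefore ordered by UMIs of the 3 genes per 1000 UMIs, with ranges cut after the values were seen, so the ranges are parts of a scale and not types. Under 1 per 1000 there were 2933 members (33.2%), from 1 to 2 there were 2716, from 2 to 5 there were 2266, from 5 to 10 there were 623, and 286 members (3.24%) had 10 or more. Depth ran the other way, with a median of 6539 UMIs in the lowest range and 1869.5 in the highest. This order is in part set by the rule. A member has at least 2 UMIs of the 3 genes, so only deep nuclei can lie under 1 per 1000. The comparisons of ranges below carry this difference in depth. Near the cuts lay 591 members with 4 to 6 and 110 with 9 to 11 per 1000. The 909 members with at least 5 per 1000 were 1.59% of kept nuclei, and 179 nuclei with as many were not members because they carried fewer than 2 of the genes. Marked doublets were 7.98% in the lowest range and 0.699% in the highest, beside the same difference in depth.

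Several groundhog and leading genes stood higher in the upper ranges, and others did not. The rule genes are high in the upper ranges by construction, while grd-5, which the rule did not use, had 14078 CPM at 10 or more per 1000, against 522 CPM under 1 and 377 CPM in other nuclei. Its mean over the 25 libraries with at least 10 members at both ends was 8086 ± 2259 CPM at 5 or more and 554 ± 105 CPM under 1 (SD), higher in 25 of 25 libraries. The highest range also held more osm-11, at 2715 against 214 CPM under 1 per 1000, more srap-1, at 680 against 34.7 CPM, and more aqp-8, at 363 against 51.5 CPM. Both grd-4, at 178 against 7.41 CPM, and grd-14, at 224 against 62.0 CPM, stood higher, as did ptc-3, at 151 against 50.5 CPM, and ptr-8, at 79.4 against 29.0 CPM. At 5 or more per 1000 the levels of osm-11, srap-1, aqp-8 and grd-4 were higher than under 1 in 25 of 25 libraries, and those of grd-14, ptc-3 and ptr-8 in 24, 23 and 21. Like grd-5, these genes were given above as higher in members of the same libraries. The nuclei at 5 or more are among those members, so these library counts are no separate support. The groundhog gene grd-6 went the other way, at 1.17 CPM (1 UMI) at 10 or more, 0.453 CPM (1 UMI) at 5 to 10 and 13.9 CPM (320 UMIs) under 1 per 1000, and at 5 or more it was higher in 0 of 25 libraries. For grd-1 the levels were 2.34 CPM (2 UMIs) at 10 or more and 4.68 CPM (108 UMIs) under 1, higher in 4 of 25. Of the leading genes, F20A1.1 had 299 CPM at 10 or more, 373 CPM at 5 to 10 and 204 CPM under 1 (higher in 15 of 25), and flp-14 had 99.3 CPM at 10 or more and 125 CPM under 1 (higher in 8 of 25).

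Some seam genes followed the scale and others did not. The receptor gene nhr-74 had 94.6 CPM (81 UMIs) at 10 or more per 1000, against 2.90 CPM (67 UMIs) under 1 and 3.07 CPM in other nuclei, and at 5 or more it was higher than under 1 in 23 of 25 libraries. The GATA gene elt-1 had 21.03 CPM (18 UMIs) against 2.47 CPM under 1, higher at 5 or more in 17 of 25 libraries. The fusion gene aff-1 had 11.7 CPM (10 UMIs) against 1.86 CPM, higher in 15 of 25, and lin-29 had 46.7 CPM (40 UMIs) against 14.99 CPM, higher in 22 of 25. In contrast egl-18 had 19.9 CPM (17 UMIs) against 13.1 CPM under 1 and 22.5 CPM in other nuclei. The highest range held 2 UMIs each of rnt-1 and ceh-16 and 1 UMI each of bro-1 and wrt-2, too few to place them. The junction genes hmr-1 and ajm-1 stood at 65.4 and 126 CPM in the highest range, against 76.0 and 140 CPM under 1 per 1000.

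**Figure D3:**
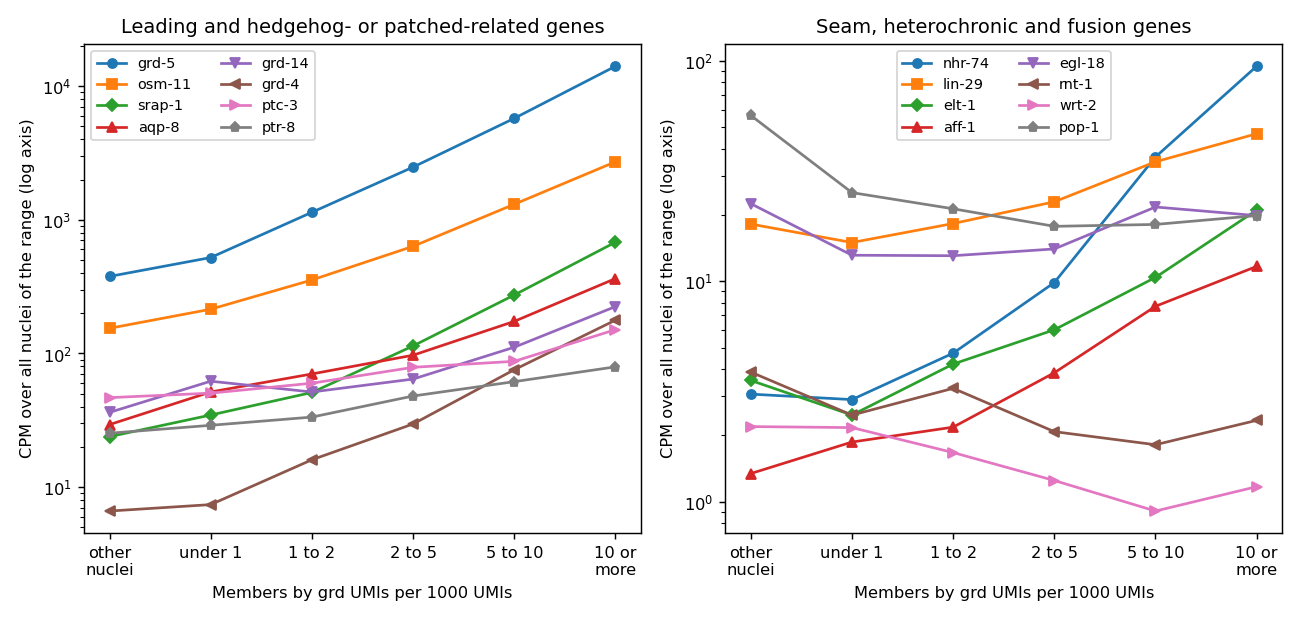
CPM on a log axis (y), from UMIs summed over all nuclei of a range, in other kept nuclei and in members ordered by UMIs of grd-3, grd-10 and grd-13 per 1000 UMIs (x), for leading and hedgehog- or patched-related genes (left) and seam, heterochronic and fusion genes (right). The line of grd-5 reaches 14078 CPM and that of nhr-74 94.6 CPM in the highest range, while rnt-1 and wrt-2 stay under 4 CPM in every range.

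Genes with at least 20 UMIs in the highest range were also ordered by their ratio to other nuclei, a rule set after the values were seen. The first were grd-5 (37.3), nhr-74 (30.8), srap-1 (28.5) and grd-4 (26.8). Next, the anion transporter gene sulp-5 had 45.6 CPM at 10 or more per 1000 against 1.90 CPM in other nuclei (24.0), C23H5.15 had 143 against 6.05 CPM (23.6), and T07D10.3 had 73.6 against 3.26 CPM (22.6). They were followed by T07A5.1 (19.2), W02B3.4 (18.96), C04F1.1 (17.8), osm-11 (17.6), drd-10 (17.4) and dac-1 (16.3). At 5 or more per 1000 the levels of these 13 genes were higher than under 1 in 19 to 25 of 25 libraries. The genes were chosen by their level at 10 or more, and those nuclei are among the nuclei at 5 or more. The library count is therefore no separate support for them.

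Marker genes of other tissues were present along the whole scale. The 3 body wall muscle genes together held 4737 CPM at 10 or more per 1000, 6604 CPM under 1 and 4190 CPM in other nuclei, and at least 1 of them was detected in 86.7% of the highest range. The 3 intestine genes vit-2, ges-1 and ifb-2 held 7205 CPM at 10 or more, 11487 CPM under 1 and 13497 CPM in other nuclei. The 3 germline genes held 261 CPM in the highest range and 605 CPM in other nuclei. The 3 excretory genes vha-5, exc-4 and aqp-8 held 474 CPM at 10 or more, 119 CPM under 1 and 91.5 CPM in other nuclei. Most of these 474 CPM were aqp-8. The 6 furrow collagen genes of the epidermis held 23.4 CPM in the highest range and 28.8 CPM in other nuclei. The part of these tissues in the levels above was not tested.

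The grd nuclei were set beside the other epidermal sets of kept nuclei as a description. The furrow set held 261 other nuclei with at least 2 of the furrow collagens dpy-2, dpy-3, dpy-7, dpy-8, dpy-9 and dpy-10, and the second set 279 other nuclei with both abu-1 and col-161. The sets overlapped with the members before this split. Of 429 kept nuclei with the furrow mark, 168 (39.2%) were members, as were 185 (39.9%) of 464 with both abu-1 and col-161. The share in all kept nuclei was 15.4%. The marked nuclei were also deeper, with medians of 3589 and 4384.5 UMIs in the same order, against 1765 in all kept nuclei. Thinning as described above gave shares of 8.39% (furrow mark), 6.03% (abu-1 and col-161) and 4.33% (all kept nuclei). The 168 and 185 members were left out of the furrow and second sets, which lowers the grd levels there. From UMIs summed over all libraries, grd-5 stood at 1540 CPM in members, 323 CPM in furrow nuclei and 651 CPM in abu-1 and col-161 nuclei. The warthog gene wrt-2 went the other way, at 1.78 CPM in members, 152 CPM in furrow nuclei and 3.58 CPM in the abu-1 and col-161 nuclei. The level of grd-14 was 64.6 CPM in members, 55.7 CPM in furrow nuclei and 558 CPM in the abu-1 and col-161 nuclei. For osm-11 the levels were 427, 158 and 146 CPM in the same order, and for eff-1, which encodes a fusogen, 4.86, 17.9 and 2.69 CPM. Not all genes given above as higher in members were highest there among these sets. For aqp-8 the levels were 76.4, 99.8 and 43.0 CPM, for ptc-3 62.0, 124 and 39.4 CPM, and for grl-4 89.4, 50.4 and 278 CPM. Among the higher collagens, col-139 had 1936, 1654 and 3412 CPM. Other genes were highest in members, such as srap-1 at 76.4, 28.4 and 30.4 CPM and col-103 at 2745, 1305 and 1442 CPM. These differences were not tested.

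The share of members was compared next, to ask whether grd nuclei were more or less frequent in worms of ethanol lines. It varied most between batches. In batches 2 and 4 it lay between 13.8% and 29.4% of kept nuclei, and in batch 5 between 4.04% and 9.67%. The untreated P0 libraries had 14.04% in sorted nuclei and 6.87%, 5.81%, 5.33% and 1.96% in unsorted nuclei. No batch held both P0 and other worms, so P0 was not compared, and labels were permuted only within batches.

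In F1 the 0.05% ethanol libraries had 13.8% and 17.2% members in batch 2 and 7.86%, 4.47% and 8.63% in batch 5. The water libraries had 17.2% and 22.7% in batch 2 and 9.67%, 4.04% and 7.44% in batch 5. The groups overlapped in batch 5. The mean difference was -1.83 percentage points (exact two-sided permutation within batches, p = 0.367, 0.458 adjusted over the 5 comparisons), with -4.49 points in batch 2 and -0.0647 in batch 5. After thinning it was 0.00376 points.

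For 0.5% ethanol in F1, all in batch 5, the libraries had 6.504%, 5.92% and 9.36%. Water libraries of that batch, given above, lay on both sides of each of these values. The means were 7.26% ± 1.84 for 0.5% ethanol and 7.05% ± 2.84 for water (SD, n = 3 each; exact permutation p = 1.0, where 3 against 3 libraries allow no p under 0.1).

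In F3 the 0.05% ethanol libraries had 18.9% and 21.9% in batch 2 and 21.8%, 20.1% and 18% in batch 4. The water libraries had 29.4% and 23.7% in batch 2 and 21.2%, 18.9% and 22.6% in batch 4. Both 0.05% ethanol libraries of batch 2 lay below both water libraries, and the groups overlapped in batch 4. The mean difference was -3.01 points (exact permutation within batches, p = 0.133, adjusted 0.222), with -6.16 points in batch 2 and -0.912 in batch 4. It was -0.048 points after thinning.

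The 0.5% ethanol F3 libraries, all in batch 4, had 16.4%, 17.6% and 16.8%, each below the 3 water libraries of that batch. Their mean was 16.9% ± 0.637, against 20.9% ± 1.84 in water (SD, n = 3 each), a difference of -3.96 points. The exact permutation p was 0.1, the smallest that 3 against 3 libraries allow, and 0.222 after adjustment. At equal depth the means were 5.07% ± 0.413 in 0.5% ethanol and 6.23% ± 0.697 in water, a difference of -1.16 points, again without overlap and with the same smallest p of 0.1. Without water F3 replicate 3 of batch 4, which stood at 7.03%, the means at equal depth were 5.07% in 0.5% ethanol and 5.83% in water, a difference of -0.758 points (exact permutation p = 0.1, the smallest that 3 against 2 libraries allow; this alternative was chosen after seeing the data). Members with at least 5 grd UMIs per 1000 were 1.81% ± 0.374 of kept nuclei in 0.5% ethanol and 2.32% ± 0.466 in water, with overlap (p = 0.3, exact permutation).

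Generations could be compared only within batch 2. There F3 libraries had 18.9% and 21.9% members (0.05% ethanol) and 29.4% and 23.7% (water), and F1 libraries 13.8% and 17.2% (0.05% ethanol) and 17.2% and 22.7% (water). Within each dose both F3 libraries lay above both F1 libraries. The mean difference was 5.71 points (exact permutation within doses, p = 0.0556, the smallest that this design allows, adjusted 0.222). At equal depth it was 0.267 points (p = 0.389, exact permutation). For members with at least 5 grd UMIs per 1000 the direction was the opposite, with 1.36% ± 0.178 of kept nuclei in F3 and 1.80% ± 0.2501 in F1 (SD, n = 4 each; exact permutation p = 0.0556). None of the 5 comparisons passed 0.05.

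**Figure D4:**
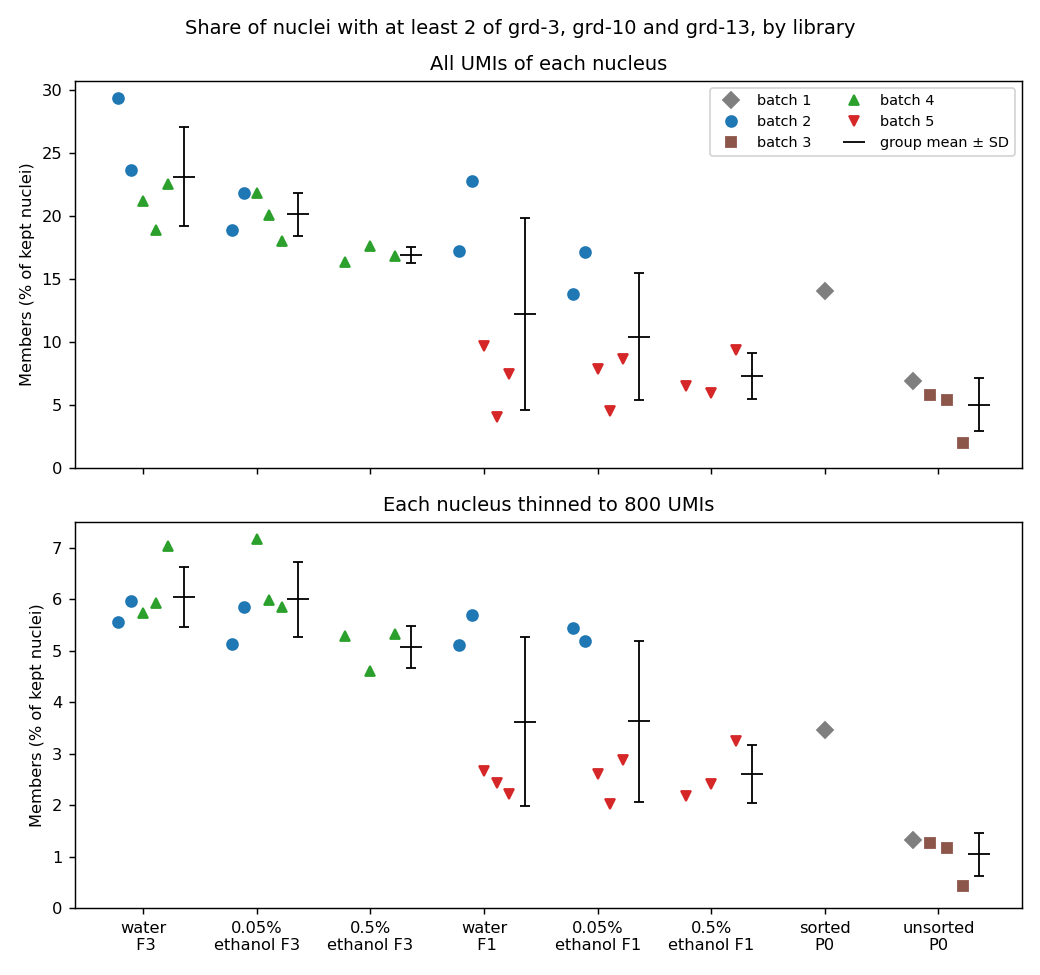
Members as a percentage of kept nuclei (y axis) in each library by group (x axis), from all UMIs (top) and after thinning each nucleus to 800 UMIs (bottom); marker shape gives the batch and black bars the group mean ± SD over libraries. The 0.5% ethanol F3 libraries lie between 16.4% and 17.6% in the top panel, below the 3 water F3 libraries of batch 4, and batch 5 lies lower than batches 2 and 4.

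Levels of the rule genes between conditions were tested in UMIs summed over all kept nuclei of a library, a measure that the rule did not use. In such sums fewer grd nuclei and less RNA per nucleus cannot be told apart. Of 13769 genes tested, edgeR's quasi-likelihood test with Benjamini-Hochberg adjustment called none in the 4 ethanol comparisons (0% of genes), with 129 genes (0.05% ethanol F1), 157 (0.05% ethanol F3), 244 (0.5% ethanol F1) and 496 (0.5% ethanol F3) at an unadjusted p under 0.05. DESeq2 called 1, 0, 1 and 1 genes in the same order. Replicate numbers were taken to pair the libraries in both comparisons of 0.5% ethanol with water, and also those of 0.05% ethanol and water F1. The main edgeR fits, here and in member sums below, and the permutations of member shares did not use this pairing. With the number as a block, edgeR called 1 gene (0.5% ethanol F1) and 3 genes (0.5% ethanol F3) in library sums. The block changed no count of calls for 0.05% ethanol there.

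With 0.5% ethanol in F3 the groundhog genes stood lower in whole libraries, without passing the test. For grd-3 the 0.5% ethanol F3 libraries had 653, 649 and 575 CPM, and the water F3 libraries of batch 4 had 752, 739 and 797 CPM. The ranges of ethanol and water were apart, but the gene was not called (log2 fold change -0.30, SE 0.198, edgeR adjusted p = 0.993). For grd-13 the same libraries had 30.4, 29.5 and 29.3 CPM in 0.5% ethanol and 35.5, 34.8 and 34.4 CPM in water, again without overlap and not called (-0.31, SE 0.197, edgeR adjusted p = 0.993). For grd-10 they had 169, 135 and 139 CPM in 0.5% ethanol and 182, 152 and 175 CPM in water, with overlap (-0.23, SE 0.221). The gene grd-5, outside the rule, averaged 720 ± 60.8 CPM in 0.5% ethanol and 861 ± 33.2 CPM in water, without overlap (-0.25, SE 0.196, edgeR adjusted p = 0.993).

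In the other ethanol comparisons the groups overlapped for all 3 rule genes. With 0.05% ethanol the log2 fold changes were -0.08, -0.10 and -0.09 in F1 and 0.07, 0.10 and -0.03 in F3, for grd-3, grd-10 and grd-13 in this order, with SE from 0.159 to 0.188. With 0.5% ethanol in F1 they were -0.28, 0.11 and -0.07, with SE from 0.200 to 0.236. The edgeR adjusted p was 1.00 for each of these 9 values.

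Between generations of batch 2 the 3 neighbouring genes differed in direction. For grd-13 the F3 libraries had 39.8 and 43.4 CPM (0.05% ethanol) and 51.3 and 42.8 CPM (water), and the F1 libraries 28.8 and 37.8 CPM (0.05% ethanol) and 26.4 and 35.0 CPM (water). Every F3 library lay above every F1 library, with a log2 fold change of 0.55 (SE 0.157, edgeR adjusted p = 0.159), which did not pass. For grd-10 the F3 libraries had 195, 218, 185 and 200 CPM and the F1 libraries 121, 158, 116 and 199 CPM, in the same order of doses (0.50, SE 0.182, edgeR adjusted p = 0.265). For grd-3 the F3 libraries had 642, 478, 538 and 483 CPM and the F1 libraries 757, 557, 683 and 645 CPM (-0.24, SE 0.161, edgeR adjusted p = 0.554). In this comparison edgeR called 115 of 12990 genes (0.885%), 17 higher (0.131%) and 98 lower (0.754%) in F3, among which were none of the 28 hedgehog-related genes tested and 4 of 135 collagen genes (col-139, dpy-14, col-60 and col-95).

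Gene levels within members were then compared in UMIs summed over the members of each library, with a median per library between 1365 and 5700 UMIs per member. Of 10539 genes tested, edgeR called 0 (0%) in each of the 4 ethanol comparisons. At an unadjusted p under 0.05 there were 297 genes (0.05% ethanol F1), 169 (0.05% ethanol F3), 303 (0.5% ethanol F1) and 344 (0.5% ethanol F3), and DESeq2 called 1, 0, 0 and 0. None of the hedgehog-related, patched-related, collagen, apical matrix, seam, heterochronic, junction or Wnt genes was called in any of them.

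For each ethanol comparison the gene of smallest p follows. For 0.5% ethanol in F3 it was hsp-16.41, which encodes a small heat shock protein. Its member sums had 37.7, 22.8 and 22.8 CPM in 0.5% ethanol and 112, 191 and 42.7 CPM in water. The 0.5% ethanol libraries lay below the water libraries, with a log2 fold change of -1.98 (SE 0.410, edgeR adjusted p = 0.437), which did not pass. Sums over all kept nuclei gave -2.19 for the same gene (SE 0.453, edgeR adjusted p = 0.876). For 0.5% ethanol in F1 it was ZC376.2, at 11.2, 13.7 and 11.2 CPM in 0.5% ethanol and 2.65, 0 and 2.00 CPM in water, from 21 and 5 UMIs (2.29, SE 0.483, edgeR adjusted p = 0.574).

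With 0.05% ethanol the leading genes rested on few molecules or on small changes. In F1 it was pqn-71, with 5 UMIs in 0.05% ethanol and 109 in water. Of the water libraries, those of batch 2 had 51.7 and 13.03 CPM and those of batch 5 had 0 CPM, so the value came from 1 batch (log2 fold change -4.17, SE 0.927, edgeR adjusted p = 1.00). In F3 it was F32A5.3, at 12.4 and 12.6 CPM (batch 2) and 58.5, 49.2 and 58.8 CPM (batch 4) in 0.05% ethanol, against 8.07 and 8.06 CPM (batch 2) and 43.1, 35.7 and 30.8 CPM (batch 4) in water. Within each batch each ethanol library lay above each water library, with a change of 0.64 (SE 0.1502, edgeR adjusted p = 1.00).

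Of the genes given above as higher in members, grd-5, osm-11, col-103 and nhr-74 did not pass the test in member sums in any ethanol comparison. With 0.05% ethanol in F3, the log2 fold changes were 0.27 for grd-5, 0.16 for osm-11, 0.30 for col-103 and -0.96 for nhr-74. With 0.5% ethanol in F3 they were 0.02, -0.15, -0.08 and -0.73 in the same order. With 0.05% ethanol in F1 they were 0.08, 0.12, 0.23 and 0.40, and with 0.5% ethanol in F1 -0.02, -0.06, -0.06 and 0.69. Water libraries enter both dose comparisons of a generation, so those values are not independent. Each of these values had an edgeR adjusted p of 1.00. An effect of ethanol that differed in size between F3 and F1 was called for 0 genes at either dose (edgeR; 236 and 252 genes at an unadjusted p under 0.05).

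The lists of epidermal genes were also described in member sums. With 0.5% ethanol in F3 the median log2 fold change was -0.39 over 21 hedgehog-related genes tested, -0.24 over 18 patched-related genes and -0.34 over 120 collagens, beside -0.00315 over all genes. Of these genes 4, 2 and 9 were lower at an unadjusted p under 0.05 and none was higher, beside 3.26% of all genes at that limit in either direction. With 0.05% ethanol in F3 the medians were 0.08, 0.02 and 0.17, and with 0.5% ethanol in F1 they were -0.50, -0.09 and -0.17, in the same order. With 0.05% ethanol in F1 they were 0.0131, 0.0805 and 0.00692. None of the genes was called, and a list's median was not tested.

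Between F3 and F1 in batch 2, member sums held 9 called genes of 10266 (0.0877%), all lower in F3. The epidermal signalling genes were not among them, although grd-4 (log2 fold change -1.18, SE 0.265, edgeR adjusted p = 0.140) and osm-11 (-0.75, SE 0.162, edgeR adjusted p = 0.130) stood lower. DESeq2 called 103 genes, among them all 9. With marked doublets removed or with shared barcodes removed, 0 of the 9 were called, and without any 1 of the replicate 1 libraries of batch 2 likewise 0. Without a replicate 2 library, between 1 and 4 of the 9 were called.

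The largest of these changes were in genes of low level. C08F1.10 had 0, 0.740, 0.122 and 0.645 CPM in F3 (0.05% ethanol, then water) and 22.4, 4.803, 18.9 and 8.56 CPM in F1 (-5.19, SE 0.783). The homeobox gene ceh-51 had 1.45, 1.48, 1.59 and 1.29 CPM in F3 and 12.6, 9.13, 23.1 and 8.56 CPM in F1 (-3.13, SE 0.445). The chitinase gene cht-1 had 4.36, 6.66, 3.18 and 4.52 CPM in F3 and 61.6, 21.6, 60.1 and 22.3 CPM in F1 (-3.16, SE 0.457). In all 3 genes every F3 library lay below every F1 library, and each had an edgeR adjusted p of 0.0442. H39E23.3 had 1.45, 4.44, 2.32 and 6.77 CPM in F3 and 18.2, 16.3, 68.5 and 26.1 CPM in F1 (-3.19, SE 0.480). F56D6.8 had 7.997, 11.1, 6.48 and 22.9 CPM in F3 and 74.2, 68.7, 65.0 and 106 CPM in F1 (-2.74, SE 0.350). The groups did not overlap here either, with the same adjusted p. In the other batches F56D6.8 lay between 12 and 54.8 CPM in the F3 libraries of batch 4 and between 198 and 740 CPM in the F1 libraries of batch 5, where batch and generation cannot be told apart. C08F1.10 lay between 0 and 1.85 CPM in the F3 libraries of batch 4. In the F1 libraries of batch 5 it was at 7.94, 19.3 and 5.99 CPM (water), 1.26, 0 and 0 CPM (0.05% ethanol) and 5.08, 13.7 and 4.994 CPM (0.5% ethanol), from 0 to 9 UMIs each.

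**Figure D5:**
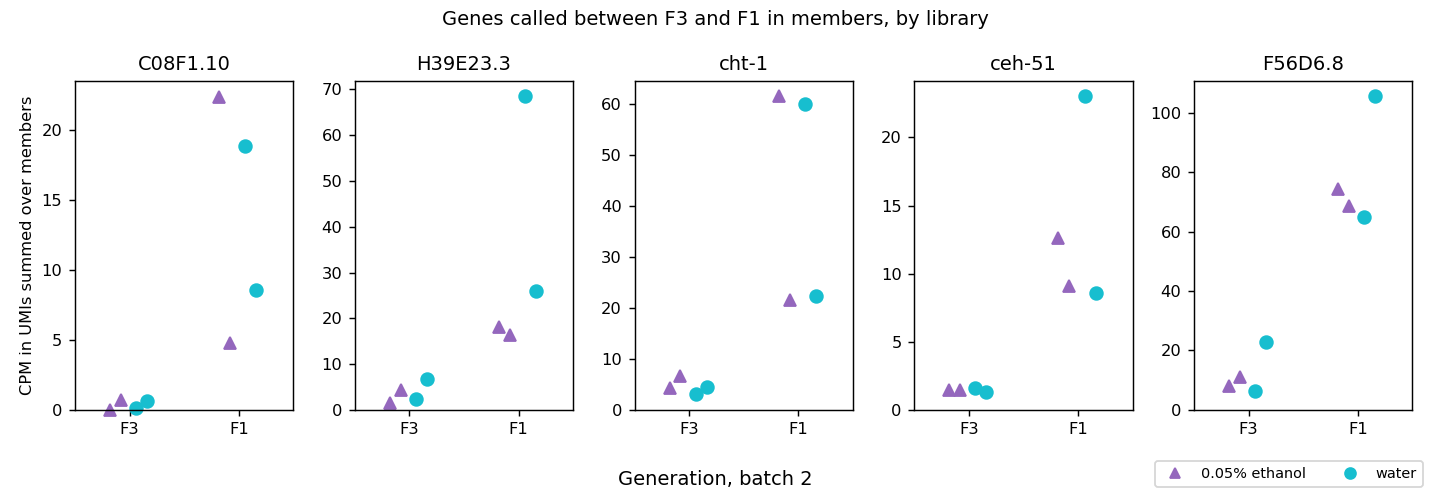
CPM in UMIs summed over members (y axis) in the F3 and F1 libraries of batch 2 (x axis), for the 5 called genes with the largest change; triangles are 0.05% ethanol and circles water libraries. Every F3 point lies below every F1 point in the panels of C08F1.10, H39E23.3, cht-1, ceh-51 and F56D6.8.

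The other 4 called genes were cnc-7, of an antimicrobial peptide family (log2 fold change -2.18, SE 0.327), the cytochrome P450 gene cyp-34A2 (-1.76, SE 0.255), far-3, for a fatty acid and retinol binding protein (-1.12, SE 0.152), and T24B8.5 (-0.89, SE 0.135). The same genes stood lower in sums over all kept nuclei, members included, where edgeR called 8 of the 9 genes, and the ninth, far-3, stood at -0.82 (SE 0.161, edgeR adjusted p = 0.0508). That is 8 of the 9 genes called in members and 8 of the 115 called in whole libraries.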

How the data were processed

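UMI counts per gene and nucleus were read as the authors deposited them, 1 matrix per library; Cell Ranger and the genome build ce10 are named in the submitters' processing notes, without their role, and the matrix headers give software version 3.0.2. Gene models of WBcel235 gave only chromosomes, strands and neighbours, so no coordinates are printed. The members and the gene lists were chosen with earlier results of these data known.

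Nuclei with 800 to 20000 UMIs were kept, and none was dropped as a doublet in the results as first given. Doublets were marked by a score from simulated pairs, at a rate of 0.8% per 1000 nuclei. Levels are CPM from counts summed over the nuclei of a library. Member and other nuclei were set side by side in libraries with at least 10 members, and named were the rule genes, the 25 genes of largest ratio among those in at least 20% of members, and list genes in at least 5% of members. In the comparisons between conditions, named were up to 5 called genes in each direction or, with none called, the gene of smallest p.

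Shares of members were compared by an exact two-sided permutation of libraries within batches (or within doses, between generations). Summed counts were tested with edgeR 4.0.16 in R 4.3.3 (quasi-likelihood, TMM scaling, low-count filter, an intercept per batch and generation, or per dose between generations) with Benjamini-Hochberg adjustment over all genes tested and a threshold of 0.05. DESeq2 1.42.0, a fit without the filter, other member rules, left-out libraries and a replicate block were alternatives. Removal of shared barcodes, of the 3 shallow libraries and the range of at least 5 grd UMIs per 1000 were added after the data were seen. The fit was tested on simulated data for 0.05% ethanol in F1 and 0.5% ethanol in F3. In member sums it recovered 55.1% and 50.0% of 2-fold changes, and 94.9% and 97.0% of 4-fold changes, in this order. In library sums it recovered 64.6% and 47.5% of 2-fold changes. A 2-fold change was thus often not called. Intervals of counts cover counting error only.

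The labels give replicate numbers without saying what they mark. The correlation of same-numbered libraries around their group means, over 6856 genes in library sums, was 0.452 to 0.731 for 0.05% ethanol in F1, 0.558 to 0.688 for 0.5% ethanol in F1 and 0.136 to 0.592 for 0.5% ethanol in F3, so numbers were taken to pair these libraries. Over 6283 genes in member sums it was 0.171 to 0.466, 0.104 to 0.190 and 0.169 to 0.378 in the same order. It was as low as -0.00849 for 0.05% ethanol in F3 and 0.0427 between generations in library sums, which were not taken as paired. Not every library taken as paired correlated best with its own number. In library sums, replicate 2 of 0.5% ethanol F3 had 0.136 with its own number and 0.164 with another. In member sums, replicate 1 of 0.5% ethanol F1 had 0.104 and 0.122. In batch 2, with 2 libraries per group, the value with the other number is the negative of the own one and gives no contrast.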

Additional observations from a re-analysis of the deposited data

Results flagged for a closer look

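After thinning to 800 UMIs, 7.03% of kept nuclei were members in water F3, batch 4, replicate 3, far from the other water F3 libraries for the size of that group. Of 45 tests for such a gap this was the 1 found, and chance alone gives about 1 in 20 tests. The tests took several related measures of the same groups, with batches pooled, so they are not independent.

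Nuclei outside the UMI limits also carried the rule genes. Above 20000 UMIs, 1073 nuclei (77.6% of those) had at least 2 of the 3 genes, and below 800 UMIs 434 nuclei (1.63%) had them. These nuclei entered no comparison above.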

How the results depend on the processing

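Of the alternatives for the member share, 83 kept the direction of the difference and 10 reversed it. For 0.05% ethanol in F1 the difference was 0.00376 points after thinning and 0.258 with at least 5 grd UMIs per 1000, and in F3 0.114 with at least 5. For 0.5% ethanol in F1 it was -0.0918 with all 3 genes required, -3.21 with at least 1 gene, -0.0279 with at least 5 per 1000, -0.627 without the 3 shallow libraries of batch 5, and from -1.30 to 1.52 with 1 library left out. Between generations it was -0.447 with at least 5 per 1000.

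In member sums DESeq2 called 1 gene for 0.05% ethanol in F1. Without the low-count filter 32 (0.05% ethanol F1), 39 (0.05% ethanol F3), 25 (0.5% ethanol F1), 94 (0.5% ethanol F3) and 428 (generations) genes were called. For 0.5% ethanol in F3, 1 gene was called from the libraries of the comparison alone, 1 with all 3 genes required, and 0 to 1 with 1 library left out. Between generations DESeq2 called 103, the replicate block 29, and removal of shared barcodes, of marked doublets, all 3 genes and at least 5 per 1000 gave 0 each. With 1 library left out 0 to 12 were called.

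In library sums DESeq2 called 1 gene each for 0.05% ethanol in F1, 0.5% ethanol in F1 and 0.5% ethanol in F3, and 375 between generations. The replicate block gave 1 (0.5% ethanol F1), 3 (0.5% ethanol F3) and 276 (generations), and it changed no other count of calls. Without the filter 5 (0.5% ethanol F3) and 889 (generations) were called, and all deposited nuclei gave 55 between generations, where 0 to 141 were called with 1 library left out.

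The log2 change of grd-10 for 0.5% ethanol in F1 was -0.00371 over all deposited nuclei. With 1 library left out it ran from -0.26 to 0.27, and that of grd-13 from -0.39 to 0.0840. For 0.05% ethanol in F1, grd-3 ran from -0.19 to 0.0352 and grd-10 from -0.22 to 0.0800. For 0.05% ethanol in F3, grd-3 ran from -0.0146 to 0.15 and grd-13 from -0.11 to 0.0562. The causes were not tested. Groups of 3 libraries limit the share tests to p values of 0.1 or more, and the shallow libraries of batch 5 held 20 to 27 members each.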
